A study of Mus musculus with 3 samples.

Results

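The 49 genes described here encode the machinery that separates chromosomes at cell division: 11 kinesin motors, 12 centromere and kinetochore proteins, 7 proteins of the spindle checkpoint and the anaphase-promoting complex, 7 mitotic kinases and chromosomal passenger proteins, 6 proteins of cytokinesis and spindle assembly, and 6 of the condensin and chromosome surface group. They were taken from a list of symbols, and all 49 were found among the 50600 genes counted. RNA was measured in 3 libraries of mouse T helper 1 (Th1) cells, primary CD4 T cells of strain C57BL/6NJ that secrete interferon gamma, and the labels number these libraries 1 to 3 within a single group. Their headers name the 48 h point of a Th1 and Th2 time course, whose other points were not analysed here. All carry 1 donor identifier, their sex was not collected and their age is unknown. No label gives them separate animals or cultures, so p-values measure only the spread between these libraries. Whether that spread is technical or biological was not tested, and Xist differed widely between the libraries. The labels call the assay total RNA-seq, while the linked library protocol is named for poly(A)+ RNA.

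Mitosis relies on microtubule motors that build the spindle, kinetochores that attach chromosomes to it, a checkpoint that holds anaphase back until every chromosome is attached, and condensin, which folds chromosomes into compact rods. Most of these genes are transcribed late in the cell cycle and are low in resting cells. Naive T cells rest outside the cycle, and antigen receptor stimulation drives them through repeated divisions, which is why these genes are widely used as a sign of T cell proliferation. Many of their promoters carry a cell cycle genes homology region (CHR), bound by the MuvB complex, and CCAAT boxes, bound by NF-Y.

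These promoter elements are shown for the 7 genes whose window has a CHR (TTTGAA on either strand) within the last 60 bases before the annotated start and a CCAAT box (CCAAT on either strand) within the last 120. Each line gives the 120 bases before the start, 5′ to 3′ on the strand of the gene, from the RefSeq promoter table on GRCm38.p6, and capitals mark CHR and CCAAT matches.
Cdc20 (chr4:118437344-118437463, minus strand): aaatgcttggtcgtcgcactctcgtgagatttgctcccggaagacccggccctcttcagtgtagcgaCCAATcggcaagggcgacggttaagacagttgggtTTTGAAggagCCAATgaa
Ube2c (chr2:164769809-164769928, plus strand): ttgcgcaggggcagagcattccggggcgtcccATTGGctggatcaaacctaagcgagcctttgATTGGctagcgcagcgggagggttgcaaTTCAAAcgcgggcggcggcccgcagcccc
Kif11 (chr19:37376262-37376381, plus strand): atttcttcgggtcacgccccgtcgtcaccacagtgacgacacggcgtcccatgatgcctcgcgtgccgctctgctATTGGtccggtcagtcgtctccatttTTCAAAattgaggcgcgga
Kif22 (chr7:127042421-127042540, minus strand): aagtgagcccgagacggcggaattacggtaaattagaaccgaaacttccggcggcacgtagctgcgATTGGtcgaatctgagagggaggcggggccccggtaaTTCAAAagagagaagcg
Prc1 (chr7:80294356-80294475, plus strand): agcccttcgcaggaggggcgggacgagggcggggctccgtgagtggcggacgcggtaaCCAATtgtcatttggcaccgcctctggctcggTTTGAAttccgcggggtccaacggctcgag
Bub3 (chr7:131560250-131560369, plus strand): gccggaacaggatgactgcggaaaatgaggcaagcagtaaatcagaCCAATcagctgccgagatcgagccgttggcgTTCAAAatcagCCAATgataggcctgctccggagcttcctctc
Cenpn (chr8:116921620-116921739, plus strand): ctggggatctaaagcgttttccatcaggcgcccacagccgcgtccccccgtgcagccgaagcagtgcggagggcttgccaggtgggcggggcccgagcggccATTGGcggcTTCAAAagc
The CHR begins between 9 bases (Cenpn) and 43 bases (Bub3) before the start in these windows. In Cdc20, Prc1 and Kif11 it lies 18, 30 and 19 bases before the start.

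The RefSeq table held 48 windows of 300 bases, 250 before to 50 after a start, for 43 of the 49 genes. Aurkb, Incenp, Kif20a, Smc4, Spc24 and Tpx2 were not in it. A CHR was found in 33 of the 48 windows (68.8%), against 17.9% of all 32851 windows and 16.0% of the 21262 windows of protein-coding genes. Near the start, with the match beginning at most 50 bases before it or lying in the 50 bases after it, 60.4% of the members' windows held one, against 4.94% of all windows. A CCAAT box was found in 36 of the 48 windows (75%), against 37.4% of all, and both elements together in 28 (58.3%), against 6.95% of all. The variant TTTAAA was found in 9 windows (18.8%, against 13.2% of all) and the E2F core TTCCCGC, searched on both strands, in 6 (12.5%, against 4.6% of all). The E2F matches were in Cenph, Cenpk, Cenpm, Cenpn, Ncapg and Plk4. These letter matches describe the windows and were not tested, and alternative starts of 1 gene share sequence. The 30 genes with a CHR had a median of 32.9 TPM (mean level over the 3 libraries; range 5.50 to 136) and the 13 without one 24.2 TPM (range 4.82 to 69.1).

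**Figure D1:**
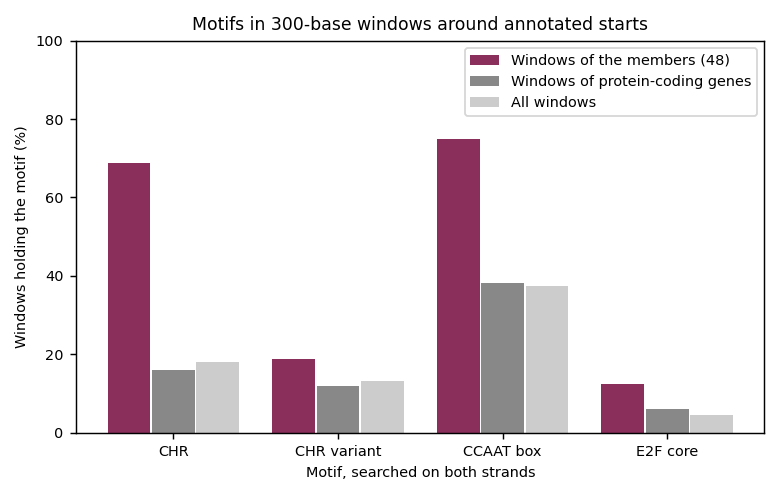
Share of 300-base windows that hold each motif on either strand (y axis, percent), for the 48 windows of the members, the windows of protein-coding genes and all windows of the RefSeq promoter table. The CHR and the CCAAT box were found in 68.8% and 75% of the members' windows, against 17.9% and 37.4% of all windows.

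Depth set what each library could show. Replicate 1 held 4742025 fragment counts, replicate 2 only 50627 and replicate 3 3543816, so that 1 count was worth 0.211, 19.8 and 0.282 CPM (counts scaled to the library total), and a count of 0 allowed up to 3 counts, or 0.633, 59.3 and 0.847 CPM. The T cell markers Cd3d, Cd3e, Cd3g, Cd4, Trac and Thy1 summed to 1269, 1047 and 639 CPM, and the Th1 markers Tbx21, Ifng, Stat4 and Il12rb1 to 301, 277 and 168 CPM, in replicates 1, 2 and 3. The erythroid and natural killer markers, and the myeloid genes Lyz2 and Itgam, had no count. The CD8 T cell list summed to 4.43, 19.8 and 3.67 CPM, with Cd8a at 0, and the B cell list to 2.11, 0 and 6.21 CPM, with Ms4a1 at 0. The myeloid list summed to 234, 198 and 455 CPM, nearly all of it Csf1r, which has 17.8% of its exonic length under opposite-strand exons. The libraries also differed in Xist, with 691, 18 and 3 counts, or 146, 356 and 0.847 CPM. The source of this difference was not tested, and it bears on whether the libraries repeat 1 sample.

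The whole set was expressed in these cells. All 49 genes had counts in replicates 1 and 3, and 46 reached 1 TPM (counts per exonic length scaled to the same sum in every library) in all 3 libraries, where 39.8% of the 18775 genes with any count did so. In replicate 2 a single count could pass this floor, as 1 count of Kif18a gave 4.20 TPM there. In replicate 1 the 49 genes held 0.623% of all counts, with an exact 95% interval of 0.616 to 0.630 that covers counting error only. Replicate 2 gave 0.543% (0.481 to 0.611), and replicate 3 gave 0.407% (0.40 to 0.414). Their median level was 39.1, 34.4 and 18.6 TPM in replicates 1, 2 and 3. In log2(TPM + 1) that was 5.32, 5.14 and 4.30, beside 3.65, 2.69 and 2.95 for the 14734 genes that reached 1 TPM in any library. Shares and TPM also depend on the rest of each library. Genes with opposite-strand exons took 52.7%, 57.8% and 72.2% of the counts of replicates 1, 2 and 3. Members without such exons had a median log2 CPM ratio of replicate 3 to replicate 1 of -0.83, and all such genes -0.84. The part of this in the lower values of replicate 3 was not tested. In bulk RNA, fewer dividing cells and less of each transcript per cell cannot be told apart either.

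Levels between members spanned from 219 TPM for Smc4 to 4.82 TPM for Kif18a as means over the 3 libraries. Smc4, Kif20a, Mki67, Incenp and Cdc20 averaged over 100 TPM, and Cenpi, Ttk, Anln and Kif18a under 10 TPM. The deposited length exceeds that of the longest coding transcript by more than 2-fold in 11 members, so ranks by TPM depend on it. The order was much alike in the 2 deep libraries, with Spearman's rho of 0.95 and Pearson's r of 0.96 in log2(TPM + 1) across the 49 genes, which share library and gene length and are not independent. Against replicate 2, where 33 members had 5 counts or fewer, rho was 0.67 for replicate 1 and 0.72 for replicate 3.

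By role, the median level in log2(TPM + 1) was 5.85 ± 0.54 for the condensin group and 5.75 ± 0.61 for kinases and passengers (SD, n = 3 libraries each). It was 4.95 ± 0.76 for the checkpoint group, 4.84 ± 0.68 for kinesins, 4.26 ± 0.78 for cytokinesis and 4.25 ± 0.49 for the kinetochore group. The condensin group, which includes Mki67, and the kinases stood above the other 4 groups in each library. This order rests on the deposited lengths, and the medians were not recomputed with coding transcript lengths. Condensin was above kinases in replicates 1 and 3 (6.37 and 6.01, and 5.30 and 5.06) but below them in replicate 2 (5.89 and 6.19), so these neighbours did not differ beyond their spread. The kinetochore and cytokinesis groups likewise changed places between libraries. These medians were not tested, because the members were chosen with earlier results known.

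**Figure D2:**
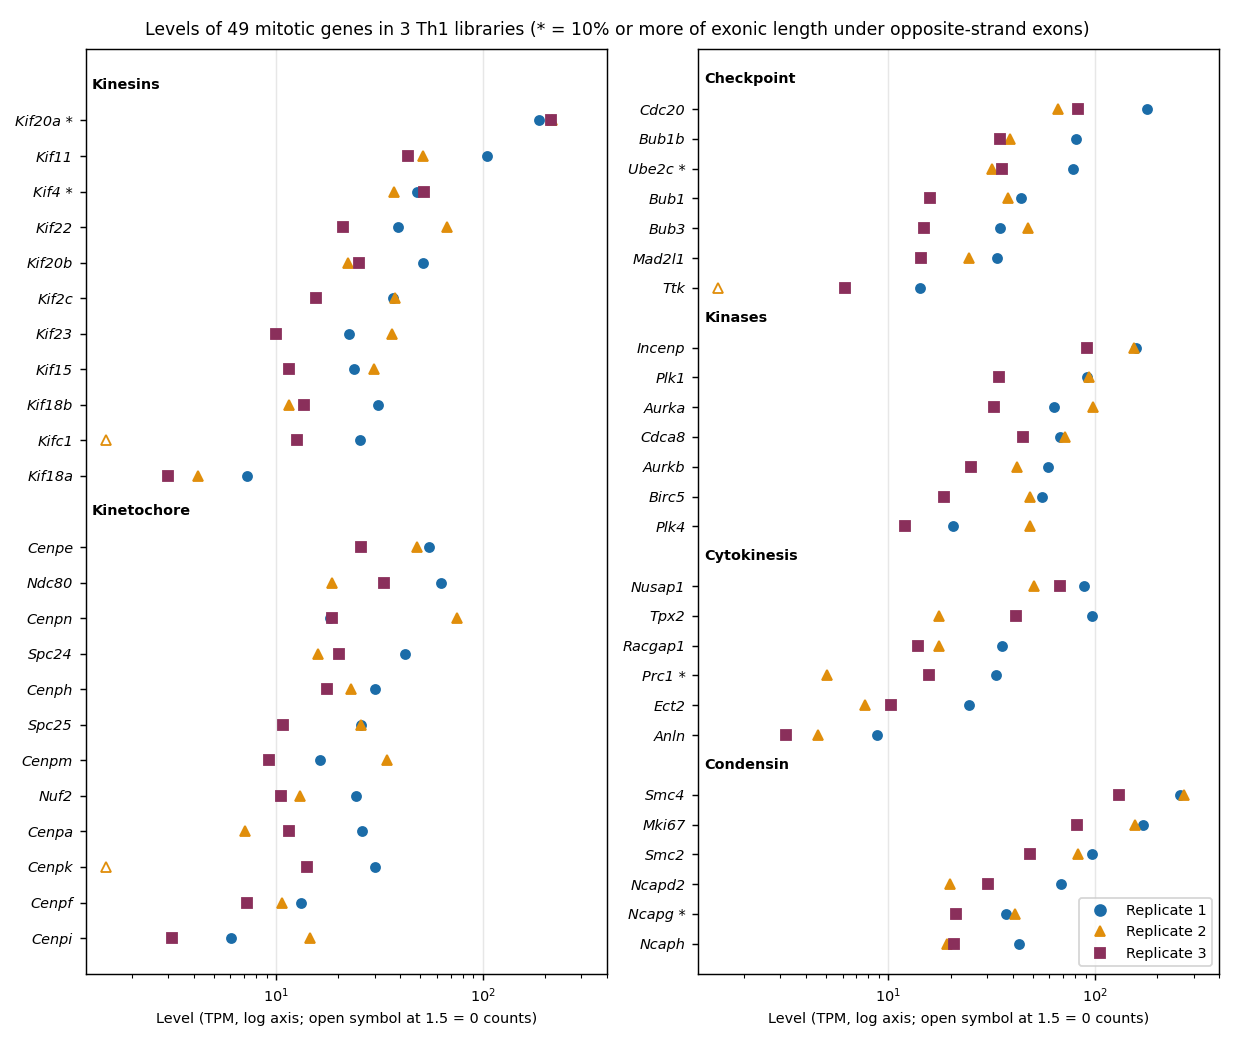
Level of each of the 49 genes in replicates 1, 2 and 3 (x axis, TPM on a log axis), arranged by role and by mean level, with genes at 0 counts drawn open at the left edge. Smc4 (258, 269 and 130 TPM) and Kif20a (188, 218 and 214 TPM) lie farthest right, and the squares of replicate 3 lie left of the circles of replicate 1 in 46 of 49 genes on this scale. Asterisks mark genes with 10% or more of their exonic length under opposite-strand exons, Kif20a among them.

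Among the kinesins, Kif20a was far above the rest in TPM, but 33.2% of its exonic length lies under exons of Cdc23 on the other strand. The part of this overlap in its level was not tested. Kif20a, which carries the chromosomal passenger complex to the central spindle, had 1527, 20 and 1598 counts, or 188, 218 and 214 TPM in replicates 1, 2 and 3. It was as high in replicate 3 as in replicate 1, unlike most of the set. Kif11, the motor that pushes spindle poles apart, stood at 105, 51.4 and 43.6 TPM, highest in replicate 1. Kif22 (42.5 ± 23.3 TPM) and Kif4 (45.9 ± 7.52 TPM; SD, n = 3) are chromokinesins, motors bound to chromosome arms. Kif22 stood at 39.1, 67.4 and 21.2 TPM on 410, 8 and 205 counts, so its mean leans on replicate 2. Kif20b, a motor of cytokinesis, averaged 32.9 TPM, and Kif2c, which takes microtubule ends apart at centromeres, 30.1 TPM. Kif23 (23.1 TPM), the motor of centralspindlin, and Kif15 (21.8 TPM), which helps to hold the spindle bipolar, lay close together. Kif18b, which limits the length of astral microtubules, averaged 18.8 TPM. Kifc1, the motor that walks to the minus end, had 187, 0 and 85 counts, and its count in replicate 1 scaled to the depth of replicate 2 would be 2.00. Kif18a, which damps chromosome movements at the metaphase plate, had the lowest mean of the 49 genes, on 7.27, 4.20 and 2.99 TPM. Cenpi was lower in replicate 1 (6.08 TPM), and 3 members were at 0 in replicate 2. The deposited length of Kif18a is 2.92 times that of its longest coding transcript, which lowers its TPM, so its place at the bottom turns on length.

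The kinetochore group spanned a narrower range, from 7.91 to 42.9 TPM on average, and no member overlaps an exon of the other strand. Cenpe, a motor that brings chromosomes to the spindle equator, stood at 55.0, 47.9 and 25.8 TPM in replicates 1, 2 and 3. Cenpf, a large coiled-coil protein of the outer kinetochore, stood at 13.2, 10.7 and 7.20 TPM. Cenpe was thus the higher of this pair in all 3 libraries, by a log2 ratio of 2.02 ± 0.16 (SD, n = 3; exact two-sided sign-flip p = 0.25, adjusted 0.33 over 20 pairs, and 0.25 is the smallest p that 3 libraries allow). Cenpa (chromosome 5, 30666777 to 30674830, plus strand, mm10), the histone H3 variant that marks the centromere, had 329, 1 and 133 counts, or 26.2, 7.05 and 11.5 TPM. Its deposited length of 5860 bp, summed over all annotated exons, is 4.00 times that of its longest coding transcript (1466 bp), which lowers its TPM. Of the inner kinetochore proteins built on Cenpa, Cenph averaged 23.6 TPM, on 115, 1 and 62 counts. Cenpm averaged 20 TPM (16.3, 34.4 and 9.29 TPM on 42, 1 and 22 counts). Cenpi averaged 7.91 TPM (6.08, 14.5 and 3.13 TPM on 74, 2 and 35 counts). The means of Cenpm and Cenpi lie above both deep libraries through the few counts of replicate 2. Cenpk had 118, 0 and 51 counts.

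Cenpn, which recognises the Cenpa nucleosome, was higher in replicate 3 than in replicate 1 relative to all counts (log2 ratio 0.33). Of the 38 members without opposite-strand exons it was the only 1, where 5.17% of all such genes were higher. It had 129, 6 and 121 counts, or 18.3, 75.2 and 18.6 TPM in replicates 1, 2 and 3. Replicate 2 was high, where the count of replicate 1 scaled to its depth would be 1.38. The exact 95% counting interval in replicate 2 ran from 27.6 to 164 TPM. The nearest exon of an opposite-strand gene, Cmc2, lies 275 bp away, and Cmc2 itself had 48, 0 and 21 counts.

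The 4 subunits of the NDC80 complex, which grips microtubules, are built in equal numbers in the protein complex. Ndc80 stood at 63.0, 18.8 and 33.2 TPM and Nuf2 at 24.5, 13 and 10.6 TPM in replicates 1, 2 and 3. Spc24 had 42.3, 16.0 and 20.1 TPM and Spc25 25.9, 25.9 and 10.8 TPM. Ndc80 exceeded Nuf2 by a log2 ratio of 1.37 (1.14 to 1.60) in replicate 1 and 1.65 (1.30 to 2.00) in replicate 3, with exact 95% counting intervals. In replicate 2, on 1 and 2 counts, it was 0.53 (-5.36 to 4.79). Spc24 exceeded Spc25 by 0.71 (0.42 to 1.00) in replicate 1 and 0.89 (0.44 to 1.36) in replicate 3. These sizes rest on the gene lengths of the files. With the longest coding transcript as length, a choice made after seeing the data, Ndc80 to Nuf2 was -0.03 and 0.25 in replicates 1 and 3, and Spc24 to Spc25 0.25 and 0.43. Means over all 3 libraries lean on the 1 or 2 counts of replicate 2: without it, Spc24 to Spc25 averaged 0.80 with the deposited length, against 0.30 with it. No order of Ndc80 and Nuf2 is therefore given.

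Checkpoint genes were led by Cdc20, the activator of the anaphase-promoting complex that the checkpoint holds in check. Cdc20 (chromosome 4, 118432901 to 118437352, minus strand), whose promoter is printed above, stood at 179, 66.3 and 82.3 TPM on 715, 3 and 303 counts. Ube2c, the ubiquitin-conjugating enzyme of that complex, stood at 78.1, 31.8 and 35.3 TPM. Both were highest in replicate 1. Bub1b, which forms the inhibitor of Cdc20, stood at 80.8, 38.6 and 34.5 TPM, and Bub1, the kinase that recruits checkpoint proteins to kinetochores, at 43.9, 37.9 and 15.8 TPM. Bub1 was below Bub1b by a log2 ratio of -0.88 in replicate 1 (-1.06 to -0.71) and -1.12 in replicate 3 (-1.43 to -0.83). In replicate 2, with 4 counts each, the ratio was -0.03 (-2.45 to 2.40), which shows no order. Bub3, which carries both to kinetochores, averaged 32.2 ± 16.3 TPM and Mad2l1, which binds Cdc20, 24.2 ± 9.63 TPM (SD, n = 3). Ttk, the kinase at the head of the checkpoint, had 149, 0 and 60 counts and was the lowest of the group at 14.1, 0 and 6.19 TPM. Its 0 in replicate 2 allowed up to 25.2 TPM, taking 3 counts as the limit, so it does not set that library apart.

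Of the kinases and passengers, Incenp was highest in all 3 libraries. Incenp (chromosome 19, 9872297 to 9899533, minus strand), the scaffold of the chromosomal passenger complex, stood at 159, 154 and 91.5 TPM in replicates 1, 2 and 3. The other parts of the complex were lower: Cdca8, or borealin, at 67.8, 71.8 and 45.0 TPM, Birc5, or survivin, at 55.6, 48.5 and 18.5 TPM, and its kinase Aurkb at 59.1, 42.0 and 25.1 TPM. Birc5 was below Incenp by a log2 ratio of -1.51 (-1.68 to -1.35) in replicate 1, -1.67 (-3.75 to 0.06) in replicate 2 and -2.31 (-2.60 to -2.02) in replicate 3. The intervals of replicates 1 and 3 do not overlap, so the ratio of these 2 genes differed between libraries beyond counting error. For Cdca8 the order turns on length: its ratio to Incenp averaged -1.12 ± 0.10, and 0.56 with the longest coding transcript as length. Aurka, the kinase of spindle poles, stood at 63.3, 97.9 and 32.3 TPM, and its log2 ratio to Aurkb was 0.10 (-0.12 to 0.31) in replicate 1 and 0.36 (0.03 to 0.69) in replicate 3. With the longest coding transcript as length these were -0.09 and 0.17, so no order is given. Plk1, the kinase of mitotic entry and spindle assembly, stood at 91.8, 93.9 and 34.4 TPM and Plk4, the kinase of centriole duplication, at 20.5, 48.2 and 12.0 TPM. Plk1 was above Plk4 by log2 ratios of 2.16 (1.95 to 2.38), 0.96 (-1.0 to 2.76) and 1.52 (1.19 to 1.85). With the longest coding transcript as length the mean ratio was 0.57, against 1.55 with the deposited length.

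In the cytokinesis and spindle assembly group, Nusap1 and Tpx2 were highest on average. Nusap1, which bundles microtubules around chromosomes, stood at 88.8, 50.9 and 67.7 TPM in replicates 1, 2 and 3. Tpx2, the activator of Aurka at the spindle, stood at 96.7, 17.7 and 41.3 TPM. Replicate 2 held 2 counts of Tpx2, where the count of replicate 1 scaled to its depth would be 10.3. Prc1, which bundles the central spindle, had 585, 1 and 254 counts and was also low there, with 6.25 from replicate 1 by depth. Racgap1, the partner of Kif23 in centralspindlin, averaged 22.3 TPM, and Ect2, which it recruits to start the contractile ring, 14.2 TPM. Ect2 was below Racgap1 by a log2 ratio of -0.52 (-0.74 to -0.31) in replicate 1 and -0.44 (-0.80 to -0.10) in replicate 3. Their mean ratio over the 3 libraries was -0.72, and -1.54 with the longest coding transcript as length. Anln, the ring scaffold, was among the lowest members at 8.76, 4.56 and 3.19 TPM. Kif23 was below Racgap1 in replicates 1 and 3 but above it in replicate 2, on 7 and 3 counts, and the mean ratio was -0.02.

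Condensin subunits differed widely. Smc4 (chromosome 3, 69004738 to 69034623, plus strand), at 258, 269 and 130 TPM, and Smc2, at 97.2, 82.9 and 48.3 TPM, are the ATPase arms of both condensin complexes and pair one to one. Smc2 was below Smc4 by a log2 ratio of -1.41 (-1.51 to -1.31), -1.70 (-2.83 to -0.69) and -1.43 (-1.58 to -1.28) in replicates 1, 2 and 3. This was the closest agreement between libraries of a pair without opposite-strand exons, together with Cenpe and Cenpf (SD 0.16 each), and with the longest coding transcript as length it was -1.77. Of the condensin I subunits, Ncapd2 stood at 68.6, 19.8 and 30.4 TPM, Ncapg at 36.9, 40.9 and 21.2 TPM and Ncaph at 42.7, 19.2 and 20.7 TPM. Smc2 exceeded Ncaph by a log2 ratio of 1.51 ± 0.53 (0.85 with the longest coding transcript as length), and Ncapg and Ncaph had no constant order. Mki67, the Ki-67 protein that coats mitotic chromosomes, had the most counts of all members, 3676, 38 and 1624, or 171, 156 and 81.9 TPM.

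Condensin I was set against condensin II, which shares Smc2 and Smc4. Ncapd2 was above its condensin II counterpart Ncapd3 by log2 ratios of 1.59 (1.41 to 1.76), 0.92 (-2.21 to 4.50) and 1.45 (1.18 to 1.72). Ncapg and Ncapg2 were level in the deep libraries, with ratios of -0.04 (-0.22 to 0.13) and 0.06 (-0.19 to 0.30) in replicates 1 and 3, but 0.39 and 0.49 with the longest coding transcript as length. Ncaph was below Ncaph2 by -2.06 (-2.22 to -1.90), -2.36 (-5.59 to -0.13) and -3.10 (-3.34 to -2.88). Ncaph2 has 19.7% of its exonic length under opposite-strand exons.

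In all, 20 pairs of related genes were compared within each library. The counting interval excluded equal levels on the same side in both replicates 1 and 3 for 17 pairs, and in replicate 2 for 4. These intervals cover counting error only and take the deposited lengths as given. With the longest coding transcript as length, Cdca8 to Incenp was 0.45 and 0.66 in replicates 1 and 3, and Ndc80 to Nuf2 -0.03 and 0.25. Kif18a to Kif18b was then -0.66 and -0.75, against -2.10 and -2.19 with the deposited length. Ndc80 to Spc25 was 0.22 and 0.56, against 1.28 and 1.62. Smc2 to Smc4 kept its order, at -1.66 and -1.68. The sign was the same in all 3 libraries for 15 pairs. Sign-flip p-values adjusted over the 20 pairs ran from 0.33 to 1, a range in which 3 libraries cannot pass a threshold of 0.05. The intervals of replicates 1 and 3 did not overlap for 4 pairs, which were Kif20a and Kif20b, Plk1 and Plk4, Ncaph and Ncaph2, and Birc5 and Incenp. Pairs of other genes were not compared, so none of these counts of pairs has a share beside it or is read as a result.

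**Figure D3:**
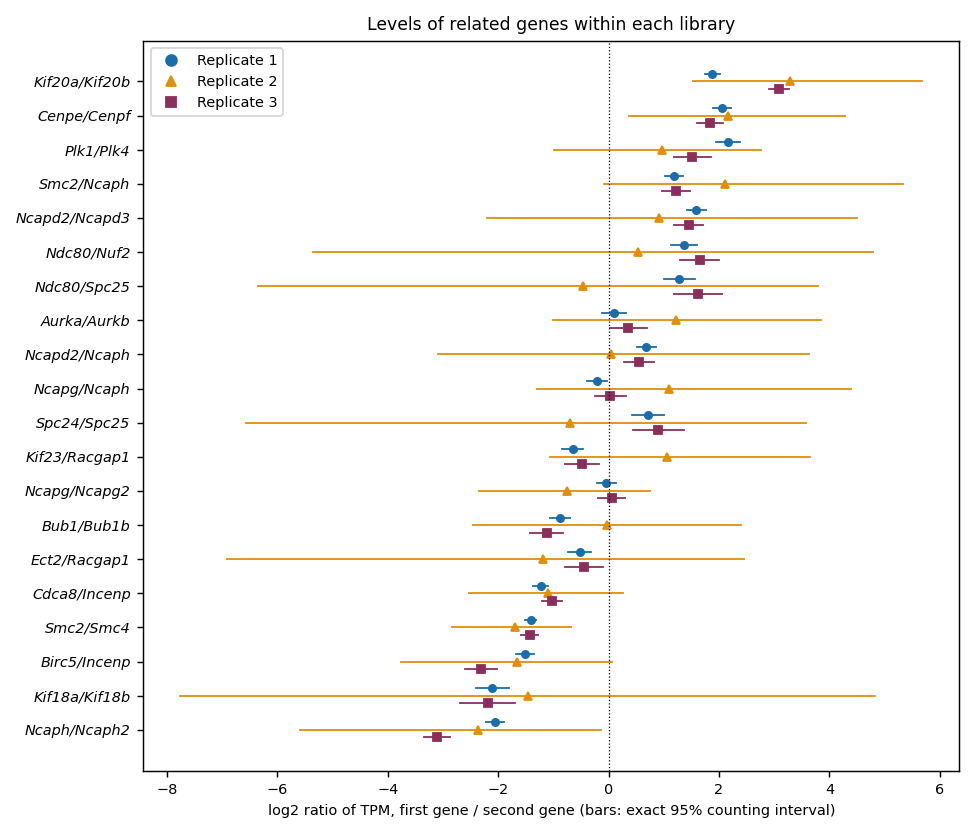
Ratio of the levels of 2 related genes within each library (x axis, log2 of TPM ratio; bars, exact 95% counting intervals; y axis, 20 pairs ordered by mean). Replicate 2 has wide bars throughout, and Smc2 lies below Smc4 in all 3 libraries (-1.41, -1.70 and -1.43).

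Relative to all counts, 46 of 49 genes were lower in replicate 3 than in replicate 1 and 3 higher, while 5 were higher with TMM scaling, 10 with DESeq2 size factors and 22 with totals over genes without opposite-strand exons. On all counts the members had a median log2 CPM ratio of -0.79 (quartiles -0.93 and -0.62). Only Kif20a (0.49), Kif4 (0.40) and Cenpn (0.33) were higher on that scale, where 25.3% of the 10019 genes with at least 50 counts over both were. More than 2-fold lower were 5 members (Birc5, Bub1, Anln, Plk1 and Racgap1), where 21.2% of those genes were, and none was under the other 3 scalings. Shares of all genes were not counted under those 3 scalings, so the member counts there have no share beside them. Over all genes the median was -0.72, near that of the members. With TMM, DESeq2 size factors and totals over genes without opposite-strand exons it was -0.25, -0.16 and 0.053. The members then had medians of -0.33, -0.23 and -0.021. The T cell markers were lower too, at 639 CPM in replicate 3 and 1269 CPM in replicate 1, and their part in the difference was not tested.

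Opposite-strand overlap went with this ratio in the whole table. Genes that share exonic positions with a gene of the other strand hold 26.2% of the exonic length and took 52.7%, 57.8% and 72.2% of the counts of replicates 1, 2 and 3. Of genes without such overlap 5.17% were higher in replicate 3, and of genes with 10% or more 73.1%. The 38 members without overlap had a median log2 ratio of -0.83 (quartiles -0.93 and -0.69), close to -0.84 for all 5857 genes of that kind. Of them 1, Cenpn, was above 0, and 4 were over 2-fold lower, where 29.2% of those genes were. The 5 members with 10% or more had a median of -0.50, against 0.66 for all 2117 genes of that kind. Whether strand assignment is the source of these differences was not tested, and it bears on every level given here: fragments were counted with strand setting 1, and the strand that the library kit reads is not given in the sources used here.

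**Figure D4:**
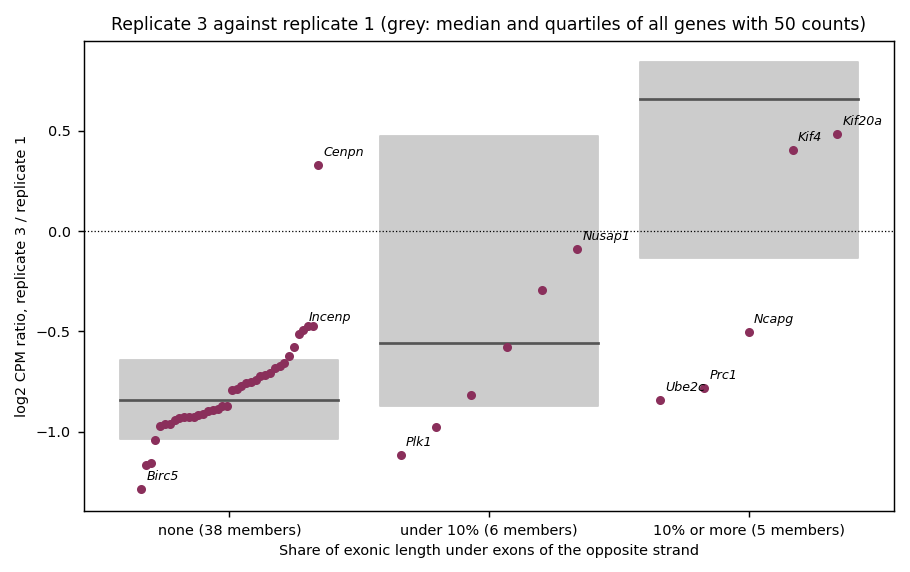
Log2 CPM ratio of replicate 3 to replicate 1 (y axis) for each of the 49 genes (points), by share of exonic length under exons of the opposite strand (x axis, 3 classes), with the median (line) and quartiles (grey) of all genes of that class. Most members without overlap lie near -0.83, while Cenpn (0.33), Kif4 (0.40) and Kif20a (0.49) lie above 0.

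The 2 kinesins that were higher in replicate 3 relative to all counts are those with a strongly counted neighbour on the other strand. Kif20a has 33.2% of its exonic length (1259 bp) under exons of Cdc23, a subunit of the anaphase-promoting complex, and the 2 genes converge at their 3′ ends. Cdc23 had 3073, 31 and 3728 counts in replicates 1, 2 and 3, a log2 ratio of 0.70 for replicate 3 to replicate 1. Kif4 has 15.1% (832 bp) under exons of Pdzd11, which starts head to head with it on the X chromosome and had 498, 6 and 679 counts (log2 ratio 0.87). The ratio of Kif20a to its relative Kif20b, which has no overlap, was 1.88 (1.74 to 2.01) in replicate 1 and 3.08 (2.90 to 3.27) in replicate 3. The part of the overlap in the level of Kif20a was not tested.

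Other members with such overlap were lower in replicate 3. Prc1 (11.1%, under Rccd1) and Ube2c (22.8%, under Tnnc2) had log2 ratios of -0.78 and -0.84, like members without overlap, and Ncapg (13.4%, under Lcorl) had -0.50. Rccd1 had 2043, 30 and 2319 counts and Lcorl 1263, 23 and 1687, while Tnnc2, a muscle troponin gene, had 11, 0 and 14. Of the 6 members with smaller overlaps, Nusap1 (4.24%, under Oip5) had -0.09 and Cdca8 (4.48%, under 9930104L06Rik) -0.29. Kif22 (1.96%), Cdc20 (2.84%) and Kif18a (0.11%) lay between -0.98 and -0.58.

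Plk1 showed the 2 strands of 1 locus. Plk1 (chromosome 7, 122159439 to 122169873, plus strand) had 432, 5 and 149 counts, a log2 ratio of -1.12. Gm44985 (122167029 to 122168044, minus strand), which lies within the bounds of Plk1 and shares 156 exonic bp with it, had 1512, 14 and 2031 counts, a log2 ratio of 0.85. Per kb of exon Gm44985 was above Plk1 by a log2 ratio of 2.92, 2.60 and 4.88 in replicates 1, 2 and 3. From these files, transcription of Gm44985 and fragments of Plk1 placed on the other strand cannot be told apart.

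A chi-square test asked of each gene whether its 3 counts differed by more than counting allows, given TMM-scaled totals. Of the 46 members tested 31 were called (adjusted p under 0.05), where 63.2% of all 7406 genes tested were, so the share is near that of the whole table. Kifc1, Cenpk and Ttk did not pass the filter. With DESeq2 size factors 23 of the 46 were called, where 54.3% of genes were, and with library totals 43, where 88.5% were. The strongest calls turn on scaling. With TMM they were Kif20a (adjusted p = 3.4e-74) and Kif4 (adjusted p = 9.4e-23), and with library totals Mki67 (adjusted p = 6.8e-73) and Smc4 (adjusted p = 2.9e-48), where Kif20a had 1.2e-17 and Kif4 4.9e-05. With replicates 1 and 3 alone 13 of 49 members were called, where 37.9% of all genes were. Without replicate 3 Cenpn alone of 46 was (adjusted p = 0.015), where 3.65% of all genes were. That call rests on 6 counts in replicate 2, where the chi-square approximation is rough, and no exact test was run. Without replicate 1 none of 46 was called, where 9.47% of all genes were. The biological coefficient of variation, a relative SD beyond counting, was 0.341 over all genes tested and 0.164 over those without opposite-strand exons.

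Within genes that have no opposite-strand exons, scaled on their own, 4 of the 35 members tested were called by the chi-square test, where 13.5% of 4136 genes were, a share near that of the table. They were Cenpn (adjusted p = 9.9e-10), Incenp (adjusted p = 0.0010), Plk4 (adjusted p = 0.036) and Birc5 (adjusted p = 0.046). Over all genes with TMM, Cenpn and Birc5 were called as well (adjusted p = 4.2e-06 and 3.0e-07), while Incenp (adjusted p = 0.87) and Plk4 (adjusted p = 0.087) were not. Relative to the median ratio of genes without overlap, Cenpn was higher in replicate 3 by 1.17 on the log2 scale, Incenp by 0.35 and Plk4 by 0.37, and Birc5 was at -0.44. Plk4 also had 8 counts in replicate 2, where 3.21 would match replicate 1. Incenp and Birc5, partners in 1 complex, thus lay on opposite sides of that median. The remaining 31 were not called at these depths.

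**Figure D5:**
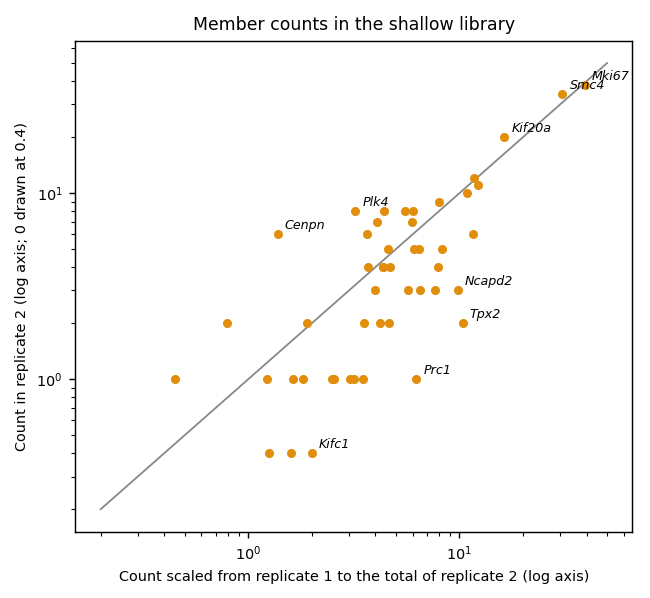
Count of each member in replicate 2 (y axis, log axis, 0 drawn at 0.4) against its count in replicate 1 scaled to the total of replicate 2 (x axis, log axis); the line marks equal values. Mki67, Smc4 and Kif20a (38, 34 and 20 counts) lie on or near the line, Cenpn (6 against 1.38) above it, and Tpx2 (2 against 10.3) and Prc1 (1 against 6.25) below it.

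Other genes of the same machinery, from lists of relatives of the members, were expressed alongside them. Of the 18775 genes with any count, 39.8% reached 1 TPM in all 3 libraries, a floor that a single count could pass in replicate 2. Of 28 other centromere and kinetochore genes, 21 reached 1 TPM in all 3 libraries and 28 in both replicates 1 and 3, with a median log2(TPM + 1) of 4.01 ± 0.50 (SD, n = 3). Cenpu (88.2 TPM on average) and Cenpo (49.8 TPM) led it, and both have over 20% of their exonic length under opposite-strand exons and were higher in replicate 3 relative to all counts (log2 ratios 0.73 and 0.59). The 16 cohesin genes, which hold sister chromatids together, had a median of 4.46 ± 0.58, and 15 reached 1 TPM in all 3. Rad21, the subunit that is cut at anaphase, averaged 132 ± 45.7 TPM and Smc1a 111 ± 53.6 TPM. All 16 were lower in replicate 3 relative to all counts, where 25.3% of genes with at least 50 counts over replicates 1 and 3 were higher. Of genes without opposite-strand exons 5.17% were higher, and only 3 of the 16 have such exons. The direction is thus that of most genes.

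Of the mitotic cyclins and their partners, 13 of 16 reached 1 TPM in all 3 libraries, where 39.8% of genes with any count did. Their median was 4.61 ± 0.51. Ccna2, or cyclin A2, led at 252 ± 36.1 TPM (12.5% overlap), and Ccnb2, or cyclin B2, averaged 57.4 ± 17.4 TPM. Of 20 genes of the anaphase-promoting complex and checkpoint partners, 17 did so (median 4.17 ± 0.52), led by Cdc23 at 162 ± 33.5 TPM (13.3% overlap, with Kif20a). Of 38 other spindle and cytokinesis genes, 29 did so (median 4.52 ± 0.55), led by the tubulin gene Tubb5 at 444 ± 209 TPM and Top2a, the topoisomerase that untangles chromosomes, at 140 ± 55.2 TPM. Kif2b had no count in any library. It was the only gene of these lists at 0, and 37 of the 38 reached 1 TPM in both deep libraries. The 3 subunits specific to condensin II all reached 1 TPM in all 3 libraries (median 5.28 ± 0.85).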

How the data were processed

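RNA was sequenced from 3 libraries of mouse Th1 cells. What the authors deposited are counts of fragments for each gene, as whole numbers with no normalization. The file headers give featureCounts 1.4.6-p4, run on read pairs with both ends mapped and exons summed by gene identifier, strand setting 1 and GENCODE M13. The labels give mm10 as assembly. The deposited gene length, another value of the files, is the summed length of all annotated exons. The kit and the aligner version were not stated in the sources used here, nor was trimming.

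CPM and TPM were computed from counts and length. Of 50600 genes, 50376 were given a symbol through their identifier. Exon overlap was computed with bedtools 2.31.1 from the deposited coordinates. With 1 group, edgeR's quasi-likelihood test could not be run. The chi-square test was applied to every gene that filterByExpr kept, on TMM-scaled totals (edgeR 4.0.16, R 4.3.3), with Benjamini-Hochberg adjustment over all genes tested at 0.05. Expected counts were small in replicate 2, where the chi-square approximation is rough. Counts were also simulated for 7406 genes with Poisson counting error only, and some genes with at least 100 counts in all were changed in replicate 3. The chi-square test recovered 100% of 2-fold changes there and called 0.37% of unchanged genes. The simulation holds no spread beyond counting, so 0.37% is not a false-call rate for these libraries. The biological coefficient of variation came from an intercept-only edgeR fit. DESeq2 1.42.0 gave alternative scaling and dispersion. Intervals are exact: Clopper-Pearson for shares, Poisson for levels and conditional binomial for ratios, all at 95%. Coding transcript lengths were taken from a newer GENCODE annotation of mm10. Alternatives changed the level floor, pseudocount, unit, scaling, filter and length, and left out each replicate in turn.

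All 49 members are named, with genes among the first 4 of each other list by mean TPM, genes at 0 in all libraries, and overlap or pair partners. The members and lists were chosen with earlier results of these data known. One marker gene is not reported here. Analyses ran in Python 3.11.15.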

Additional observations from a re-analysis of the deposited data

How the results depend on the processing

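Depth limits replicate 2 most: with at least 3 counts required in every library, 30 members passed in place of 46. In FPKM the role medians were 3.87 for kinesins, 3.30 for the kinetochore group, 3.98 for the checkpoint, 4.76 for kinases, 3.33 for cytokinesis and 4.86 for condensin, and the unit's own scale sets this shift. Within genes without opposite-strand exons, 560 genes and 4 members varied by the chi-square test, and the biological coefficient of variation was 0.164. With a replicate left out, 271 to 4167 genes and 0 to 13 members varied. Replicate 3 stood to replicate 1, for members without overlap, at a median log2 ratio of -0.37 with TMM scaling, -0.27 with DESeq2 size factors and -0.064 with totals over genes without opposite-strand exons. All genes of that kind had -0.38, -0.29 and -0.075. For members with an overlap of 10% or more it was -0.039, 0.057 and 0.27 under these scalings, where all genes of that kind had 1.12, 1.22 and 1.43. Over genes of every kind the median was 0.053 with those totals. Members higher in replicate 3 numbered 5, 10 and 22 under these 3 scalings, and 0, 0 and 0 were over 2-fold lower. Shares of all genes were not counted under them. Without length correction the mean log2 ratios were -0.092 for Plk1 to Plk4, -0.35 for Ndc80 to Nuf2, -0.0062 for Spc24 to Spc25 and 0.14 for Kif23 to Racgap1. With the longest coding transcript as length they were -0.22 for Ndc80 to Nuf2, -0.16 for Spc24 to Spc25, -0.25 for Ndc80 to Spc25, 0.19 for Ncapg to Ncapg2 and 0.56 for Cdca8 to Incenp. The first 3 of these are negative through replicate 2, and over replicates 1 and 3 they averaged 0.11, 0.34 and 0.39. With a replicate left out, Ncapg to Ncaph ran from -0.089 to 0.56, Ncapg to Ncapg2 from -0.40 to 0.0074 and Kif23 to Racgap1 from -0.57 to 0.29. The causes of these changes were not tested beyond what each setting removes. No paired analysis was possible because there is 1 group. Among calls for single members under these settings, 178 stayed on their side of the threshold, 115 were lost and 18 were gained.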

Other observations

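Other mitotic genes carried the CHR in their RefSeq windows at differing shares, where 20.2% of all genes with a window did. It was found in 10 of 24 other centromere and kinetochore genes (41.7%), among them Hjurp, Knl1 and Oip5, and in 4 of 9 cyclin and Cdk1 genes (44.4%), among them Ccnb2 and Cdk1. Of 32 other spindle and cytokinesis genes 10 held it (31.2%), among them Top2a, Aspm and Hmmr. The cohesin list had it in 3 of 12 genes (25%), which were Cdca5, Espl1 and Pds5b. The anaphase-promoting complex list had it in 3 of 19 (15.8%), a share below that of all genes, while 30 of the 43 members did (69.8%). These genes were named after their windows were seen, and the shares were not tested.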
